A study of Mus musculus with 52 samples.

Results

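The extraembryonic endoderm transcription factors described here were 6 genes, Gata4, Gata6, Sox7, Sox17, Foxa2 and Hnf4a. They were taken by symbol from a table of read counts for 55291 genes in 52 bulk RNA-seq libraries of mouse stem cells. Levels are given as CPM, the count of a gene scaled to a common library size after correction by the trimmed mean of M-values (TMM). A gene is said to have risen or fallen only where edgeR's quasi-likelihood test gave a Benjamini-Hochberg adjusted p below 0.05 over the 25056 genes tested and a log2 fold change of at least 1 in size. All 6 genes passed the filter on low counts, and each of the 37 comparisons was read for all 6.

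The libraries came from 25 groups, with 4 libraries of untreated extended pluripotent stem cells (EPSCs, line mc6-1/Mu-mClover3-10#) and 2 of every other group, all labelled WT. EPSCs had received a totipotency medium for 2 days (S1), or CHIR-99021, an inhibitor of the kinase GSK3, for 2 days. CHIR-99021 was given alone or joined by CD1530 (which activates RARγ, a receptor for retinoic acid), PD0325901 (an inhibitor of the kinase MEK) or Elvitegravir (an inhibitor of retroviral integrase). S1 cells were also kept in the totipotency medium for 25 or 38 passages (P25 and P38). Mouse embryonic stem cells (mESCs, line 2i-0606-td-ES) were sampled after 2 days of totipotency medium (mESC-S1) and in 2i/L, a medium built on inhibitors of MEK and GSK3. S1 aggregates were given 1 day of a medium named 4C-64C (S2), and S2 aggregates 1 further day of it (S3). Both stages were repeated with 8Br-cAMP (a cell-permeable cAMP analogue), Birabresib (a BET bromodomain inhibitor), CHIR-99021 or CD1530 left out. S5 aggregates had spent 3 days in a peri-implantation medium on AggreWell microwell plates, complete or without Activin A, BMP4, FGF4 or XAV939 (a tankyrase inhibitor that lowers Wnt signalling). The stage before S5, named S4, was not analysed here. The labels give no doses, and state neither the formula of the totipotency medium nor the base medium of the CHIR-99021 arms. They are also silent on whether paired libraries were grown as separate cultures. The p-values thus measure the spread between libraries, which may be technical. With 2 libraries a group, that spread was estimated over all groups, so a standard error does not fully reflect a noisier pair. The labels also do not say whether an agent left out of S3 had been present on the S2 day.

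Extraembryonic endoderm begins in the mouse blastocyst as the primitive endoderm, the layer of the inner cell mass that later gives parietal endoderm beside the trophoblast and visceral endoderm around the epiblast. FGF4 from the epiblast acts through FGF receptors and the MEK to ERK cascade on cells that express the zinc-finger factor Gata6, and Gata4, Sox17 and Sox7 come on as primitive endoderm matures. Foxa2, a forkhead factor, and Hnf4a, a nuclear receptor, belong to the visceral endoderm, where Hnf4a drives genes of secreted and transport proteins. None of the 6 is limited to this lineage: Gata4 and Gata6 also act in heart and gut, Sox7 and Sox17 in endothelium, Sox17 and Foxa2 in definitive endoderm, and Hnf4a in liver.

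Because GATA and SOX proteins bind short DNA motifs, promoters of 2 members of the set were read for those letters. The RefSeq windows read (GRCm38.p6, from 250 bases before to 50 after a start site) were 3 for Foxa2 and 2 for Hnf4a. Gata6 was left out of this search by choice, and Gata4, Sox7 and Sox17 had no window in the source used. The promoters of these genes were thus not searched. The 2 windows that held a searched motif are shown 5′ to 3′ on the gene's strand, with capitals for the motif letters. Both lie on chromosome 2, that of Hnf4a at chr2:163506607-163506906 on the plus strand and that of Foxa2 at chr2:148045415-148045714 on the minus strand, at a start site inside the annotated gene.
Hnf4a: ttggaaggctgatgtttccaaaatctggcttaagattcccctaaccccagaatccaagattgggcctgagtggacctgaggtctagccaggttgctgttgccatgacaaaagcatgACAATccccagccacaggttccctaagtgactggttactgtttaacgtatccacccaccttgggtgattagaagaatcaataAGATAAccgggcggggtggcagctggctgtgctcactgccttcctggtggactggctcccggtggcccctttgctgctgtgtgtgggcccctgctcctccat
Foxa2: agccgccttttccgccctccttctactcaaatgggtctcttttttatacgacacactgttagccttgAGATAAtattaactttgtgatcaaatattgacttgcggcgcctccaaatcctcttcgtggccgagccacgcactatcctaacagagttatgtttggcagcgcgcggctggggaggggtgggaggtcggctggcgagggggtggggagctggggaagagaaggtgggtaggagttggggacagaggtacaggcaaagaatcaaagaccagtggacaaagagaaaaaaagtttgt

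The GATA motif searched was AGATAA on either strand, which 11.2% of 32851 promoter windows held. It began 52 bases before the start site in the Hnf4a window and 183 bases before it in the Foxa2 window. The SOX motif searched was ATTGT on either strand, held by 31.0% of windows, and the Hnf4a window had it on the other strand as ACAAT, beginning 134 bases before the start site. The forkhead motif TGTTTAC (3.6% of windows) and the nuclear receptor half-site AGGTCA (16.3%) were searched as well, and none of the 5 windows held either. The other 3 windows held none of the 4 motifs.

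In the GENCODE M21 annotation of mm10, the build named in the submitters' processing notes, all 6 are protein-coding. Gata4 lies at chr14:63198922-63271692 on the minus strand and Sox7 at chr14:63943673-63950732 on the plus strand, 0.67 Mb apart. Gata6 lies at chr18:11052064-11085635, Sox17 at chr1:4490931-4497354, Foxa2 at chr2:148042877-148046969 and Hnf4a at chr2:163506808-163572910. An antisense transcript, Gm37587, covers 16.8% of the exon bases of Sox17 and had 28 counts over all libraries. Hnf4aos on the strand opposite Hnf4a shares 0 exon bases with it and had 203 counts. No source used here states the strand setting of the counting.

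The 52 libraries held between 16643188 and 108304781 counts. In 46 of them, 66.8% to 80.5% of the counts between 1 and 10 were even numbers, against 40.7% to 42.0% in the other 6, which were EPSC libraries 3 and 4 and the P25 and P38 libraries. No label states whether single reads or pairs were counted, and its part in the results was not tested. CPM sets aside a factor that is the same for all genes of a library. EPSC libraries 1 and 2 were titled with the 2-day EPSC treatments and libraries 3 and 4 with the rest, and each comparison used the EPSC pair of its own titles. The 2 libraries of CHIR-99021 alone and of CHIR-99021 with PD0325901 differed most from each other, with an SD of the log2 difference over genes of 0.571 and 0.486, against 0.148 to 0.385 in the other pairs.

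Each factor spanned a wide range over the 26 group means (the EPSC pairs kept apart). Gata4 was highest in S5 at 232 CPM and lowest with CHIR-99021 and PD0325901 at 2.35 CPM. Gata6 was highest with CHIR-99021 and CD1530 at 139.9 CPM and lowest with CHIR-99021 and PD0325901 at 0.569 CPM. These 2 GATA factors thus had their lowest group mean under the same MEK inhibitor treatment.

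The SOX factors had their highest and lowest means in other groups. Sox7 was highest in S5 without Activin A at 92.7 CPM and lowest in mESCs at 0.0927 CPM. Sox17 was highest with CHIR-99021 and CD1530 at 99.3 CPM and lowest in EPSC libraries 3 and 4 at 0.242 CPM. Foxa2 and Hnf4a were both highest in S5, at 40.8 and 87.4 CPM. Their lowest means were 0.0328 CPM for Foxa2 in mESCs and 0.0444 CPM for Hnf4a in EPSC libraries 1 and 2. When the groups are put in order of their mean, libraries of neighbouring groups overlapped at 11 of 25 steps for Gata4, 7 for Gata6, 12 for Sox7, 11 for Sox17, 13 for Foxa2 and 14 for Hnf4a, so much of the fine order is within the spread of the libraries.

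**Figure D1:**
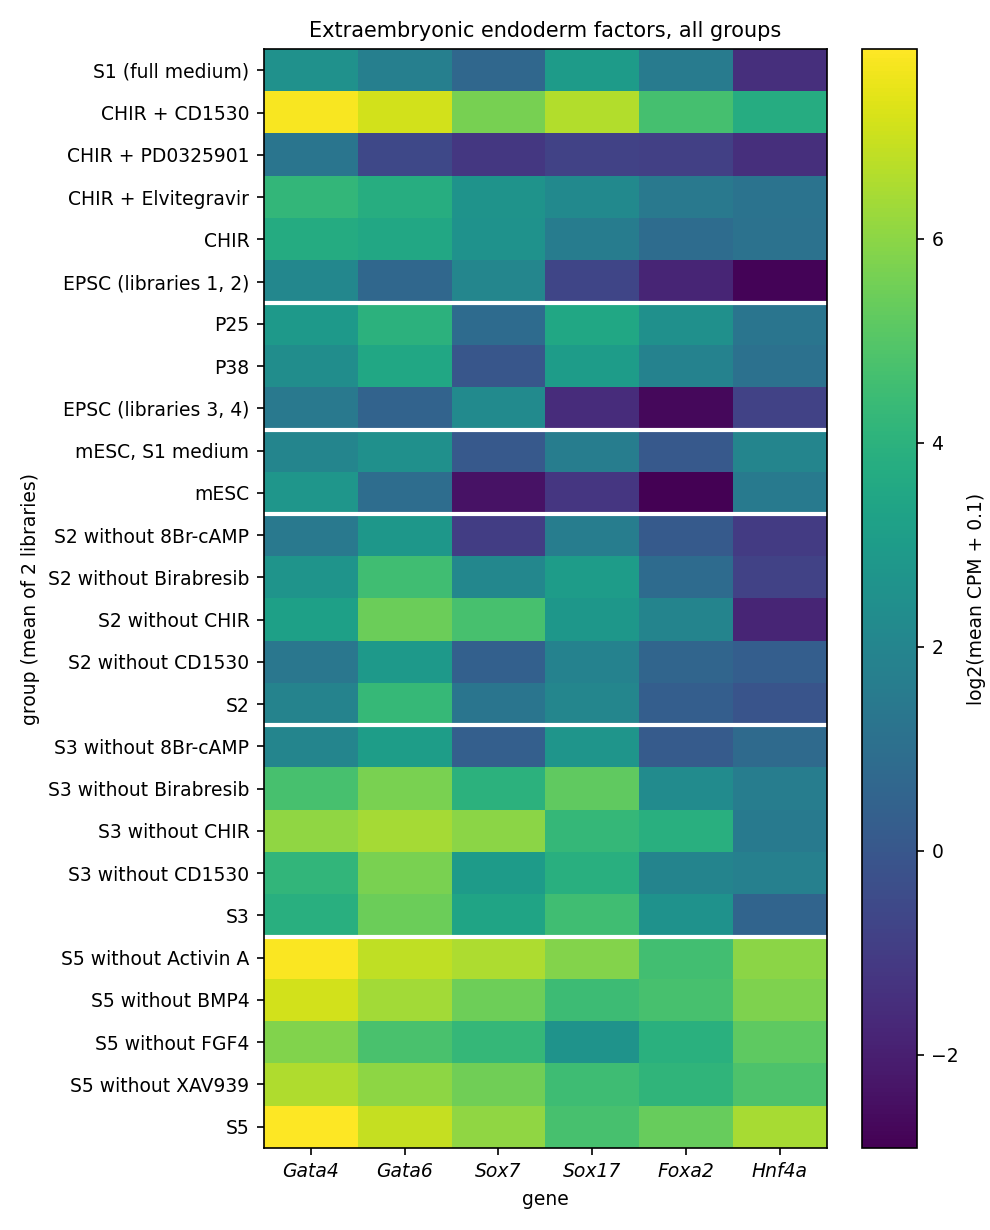
Mean level of each factor in the 26 group means, on a colour scale of log2(mean CPM + 0.1), with genes across and groups down. Full S5 holds the highest mean of Gata4, Foxa2 and Hnf4a, and CHIR-99021 with CD1530 that of Gata6 and Sox17. Hnf4a is high in the S5 groups, at 29.0 to 87.4 CPM, against 13.5 CPM with CHIR-99021 and CD1530.

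The 2-day treatments of EPSCs asked what each compound adds to CHIR-99021, and all 6 factors rose when CD1530 was added. Gata4, which acts with Gata6 in primitive endoderm, had 220.1 and 212 CPM with CHIR-99021 and CD1530, against 16.6 and 9.67 CPM with CHIR-99021 alone. Gata6, the earliest of the set in the embryo, had 141 and 139 CPM with CD1530, against 11.8 and 11.2 CPM without it. Both CD1530 libraries lay far above both libraries of CHIR-99021 alone for both genes, with log2 fold changes of 4.02 ± 0.17 (SE) for Gata4 and 3.60 ± 0.14 for Gata6.

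The SOX factors of the set moved the same way. Sox17 had 101 and 97.6 CPM with CD1530 and 3.12 and 2.81 CPM with CHIR-99021 alone. Sox7 had 49.7 and 49.1 CPM with CD1530 and 6.29 and 5.42 CPM with CHIR-99021 alone. The groups did not overlap, and the log2 fold changes were 5.06 ± 0.20 for Sox17 and 3.07 ± 0.20 for Sox7.

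Foxa2, the forkhead factor of visceral endoderm, had 24.5 and 26.9 CPM with CD1530, against 2.08 and 1.48 CPM with CHIR-99021 alone. Hnf4a, the nuclear receptor of visceral endoderm, had 12.7 and 14.4 CPM with CD1530, against 3.06 and 1.12 CPM with CHIR-99021 alone. Their libraries did not overlap either, with log2 fold changes of 3.82 ± 0.23 for Foxa2 and 2.62 ± 0.28 for Hnf4a. Of all tested genes, 9.74% rose in this comparison and 6.91% fell. In bulk RNA, more cells of a type and more RNA per cell cannot be told apart, here and in every later comparison.

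The list of other early primitive endoderm genes (receptors, adaptors and basement membrane genes, all lists written with earlier results of these data known) had 17 of 20 members that rose with CD1530, none that fell, and a median log2 fold change of 3.16, against 0 over all genes. Sparc, a secreted matrix glycoprotein, averaged 2445 ± 58.1 CPM with CD1530 and 180.1 ± 39.6 CPM with CHIR-99021 alone (SD, n = 2 each). Col4a2, a chain of type IV collagen, averaged 1221 ± 19.7 and 42.0 ± 10.2 CPM in the same order. Pdgfra, the PDGF receptor that marks primitive endoderm, averaged 269.7 ± 3.03 CPM with CD1530 and 15.9 ± 2.17 CPM with CHIR-99021 alone. In the parietal endoderm list 8 of 10 genes rose and 1 fell, and in the visceral endoderm list 10 of 19 tested rose and 1 fell. Ihh, a hedgehog ligand made by visceral endoderm, averaged 36.9 ± 2.5 CPM with CD1530, against 1.35 ± 0.721 CPM. Of the parietal list, Pth1r, the receptor for parathyroid hormone-related protein, averaged 169 ± 1.92 CPM with CD1530, against 6.77 ± 0.971 CPM.

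Genes of retinoid handling and of FGF signalling were read beside the factors. Of the retinoid list 8 of 14 rose and 1 fell with CD1530, and Cyp26a1, which degrades retinoic acid, averaged 227.5 ± 9.57 CPM, against 2.38 ± 0.872 CPM with CHIR-99021 alone. Of the FGF and ERK list 3 of 13 rose and 7 fell. Fgf4, the epiblast ligand, averaged 0.552 ± 0.324 CPM with CD1530, against 28.2 ± 3.64 CPM. The trophectoderm list had 10 of 10 genes that rose. Its Krt18, a keratin of simple epithelia, endoderm and trophoblast among them, averaged 182.1 ± 4.32 CPM with CD1530, against 24.2 ± 1.93 CPM. The whole list summed to 666 CPM with CD1530, against 89.5 to 115 CPM. The part of trophectoderm in the result was not tested.

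Because these factors also work in heart, endothelium and definitive endoderm, markers of those tissues were read. Of 10 cardiac genes 1 rose and 3 fell with CD1530, and their summed level was 12.1 to 13.0 CPM, against 16.5 to 25.6 CPM with CHIR-99021 alone, with 2 of them at 0 in the CD1530 libraries. Of 10 endothelial genes 3 rose and 4 fell, summing to 16.9 to 18.1 CPM against 50.1 to 59.6 CPM. The definitive endoderm list had 4 of 14 genes that rose and 1 that fell, and the feeder fibroblast list 5 of 10 that rose and none that fell, summing to 246 to 252 CPM against 109 to 124 CPM. The part of these cell types in the result was not tested.

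With PD0325901 the direction was the opposite: all 6 factors fell when the MEK inhibitor was added to CHIR-99021. Gata6 had 0.596 and 0.542 CPM with PD0325901 and 11.8 and 11.2 CPM with CHIR-99021 alone, a log2 fold change of −4.30 ± 0.19. Sox7 had 0.391 and 0.310 CPM with PD0325901 and 6.29 and 5.42 CPM without it, a log2 fold change of −3.97 ± 0.27. These were the largest falls of the 6, and the groups were well apart.

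Gata4 had 2.46 and 2.24 CPM with PD0325901, against 16.6 and 9.67 CPM with CHIR-99021 alone. Sox17 had 0.503 and 0.464 CPM, against 3.12 and 2.81 CPM. Foxa2 had 0.280 and 0.619 CPM, against 2.08 and 1.48 CPM. The groups did not overlap for these 3 genes, although Foxa2 differed by over 2-fold between the PD0325901 libraries. Hnf4a had 0.363 and 0.155 CPM with PD0325901 and 3.06 and 1.12 CPM with CHIR-99021 alone, where the 2 libraries were far apart. Log2 fold changes for these 4 genes lay between −2.80 ± 0.39 for Hnf4a and −2.30 ± 0.30 for Foxa2. Over all tested genes only 1.24% fell and 3.27% rose, so the 6 of 6 stands against a small background.

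Other early primitive endoderm genes fell with PD0325901 in 11 of 20 cases and rose in none, with a median log2 fold change of −1.60. Cubn, the endocytic receptor cubilin, averaged 0.725 ± 0.288 CPM with PD0325901 and 145.4 ± 2.56 CPM with CHIR-99021 alone. Dab2, an adaptor of endocytosis, averaged 6.47 ± 0.804 CPM and 102.4 ± 8.92 CPM. Lama1, a laminin chain, averaged 3.42 ± 0.306 CPM with PD0325901 and 92.7 ± 15.5 CPM without it. The early primitive endoderm list summed to 1600 to 1750 CPM with PD0325901, against 1930 to 2430 CPM with CHIR-99021 alone. The sums of other endoderm lists were higher or overlapped. A sum weighs abundant genes most and does not show how many genes of a list fell. The parietal endoderm list summed to 170 to 184 CPM with PD0325901, against 107 to 116 CPM with CHIR-99021 alone. The anterior visceral endoderm list summed to 277 to 330 CPM, against 121 to 183 CPM. The visceral endoderm list overlapped, at 743 to 1050 CPM against 642 to 963 CPM. Of the FGF and ERK list 1 of 13 rose and 5 fell. Dusp4, a phosphatase that ERK signalling switches on, averaged 13.8 ± 0.532 CPM with PD0325901, against 38.5 ± 4.41 CPM. In the epiblast and pluripotency list 5 of 10 rose and none fell, and Nanog, which opposes Gata6 in the inner cell mass, averaged 103.1 ± 22.6 CPM with PD0325901, against 21.2 ± 0.714 CPM. Leaving out the second library of both groups, chosen after seeing their spread, changed no call among the 6 factors.

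Elvitegravir changed none of the 6 by this test. Gata4 had 17.4 and 19.2 CPM with it and 16.6 and 9.67 CPM with CHIR-99021 alone, and Sox17 had 4.87 and 4.00 CPM with it and 3.12 and 2.81 CPM without. Log2 fold changes over the 6 genes were 0.00 ± 0.32 (Hnf4a) to 0.57 ± 0.20 (Sox17), none negative, and 2 of all genes tested (0.00798%) were called. That count was 1562 without the first library of CHIR-99021 alone, 0 without any other of the 4 libraries, 142 without the low-count filter and 43 by DESeq2, and no member was called in any of them. Adjusted p-values for the 6 ran from 0.119 to 1 by edgeR's quasi-likelihood test.

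Set against untreated EPSCs of the same titles, CHIR-99021 alone went with a rise of 5 of the 6, with 11.7% of all genes rising. The labels do not say whether the CHIR-99021 arms kept the medium of the EPSCs, so a change of base medium cannot be told apart. Gata6 had 11.8 and 11.2 CPM with CHIR-99021 and 1.44 and 1.53 CPM in EPSCs, and Foxa2 had 2.08 and 1.48 CPM with CHIR-99021 and 0.178 and 0.197 CPM in EPSCs. Their log2 fold changes were 2.95 ± 0.17 and 3.26 ± 0.35, and the groups did not overlap. Sox7, already at 3.91 and 4.04 CPM in EPSCs, was the exception at a log2 fold change of 0.57 ± 0.21. Hnf4a had only 4 counts and 0 counts in these 2 EPSC libraries, so that its log2 fold change of 5.47 ± 0.60 rests on very few reads. With Elvitegravir, the same 5 factors rose over EPSCs (10.9% of all genes), and Sox7 again did not pass at 0.61 ± 0.21.

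With CHIR-99021 and PD0325901, Gata6 and Sox7 fell below EPSC levels, with log2 fold changes of −1.34 ± 0.23 and −3.41 ± 0.28, where 5.79% of all genes fell and 12.3% rose. Hnf4a, with at most 4 counts in either EPSC library, rose by 2.67 ± 0.82, but lost the call without EPSC library 2 (1.77) or without the first PD0325901 library (1.65), and with all 4 EPSC libraries as the base (0.62). Gata4, Sox17 and Foxa2 did not pass. With CHIR-99021 and CD1530, all 6 rose over EPSCs by 3.64 ± 0.20 (Sox7) to 8.09 ± 0.49 (Hnf4a), against 15.4% of all genes. These comparisons share the EPSC libraries. The arm with CD1530 stood above that with PD0325901 by 5.42 ± 0.35 (Hnf4a) to 7.90 ± 0.19 (Gata6) on the log2 scale, with all 6 higher and 8.52% of all genes higher.

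**Figure D2:**
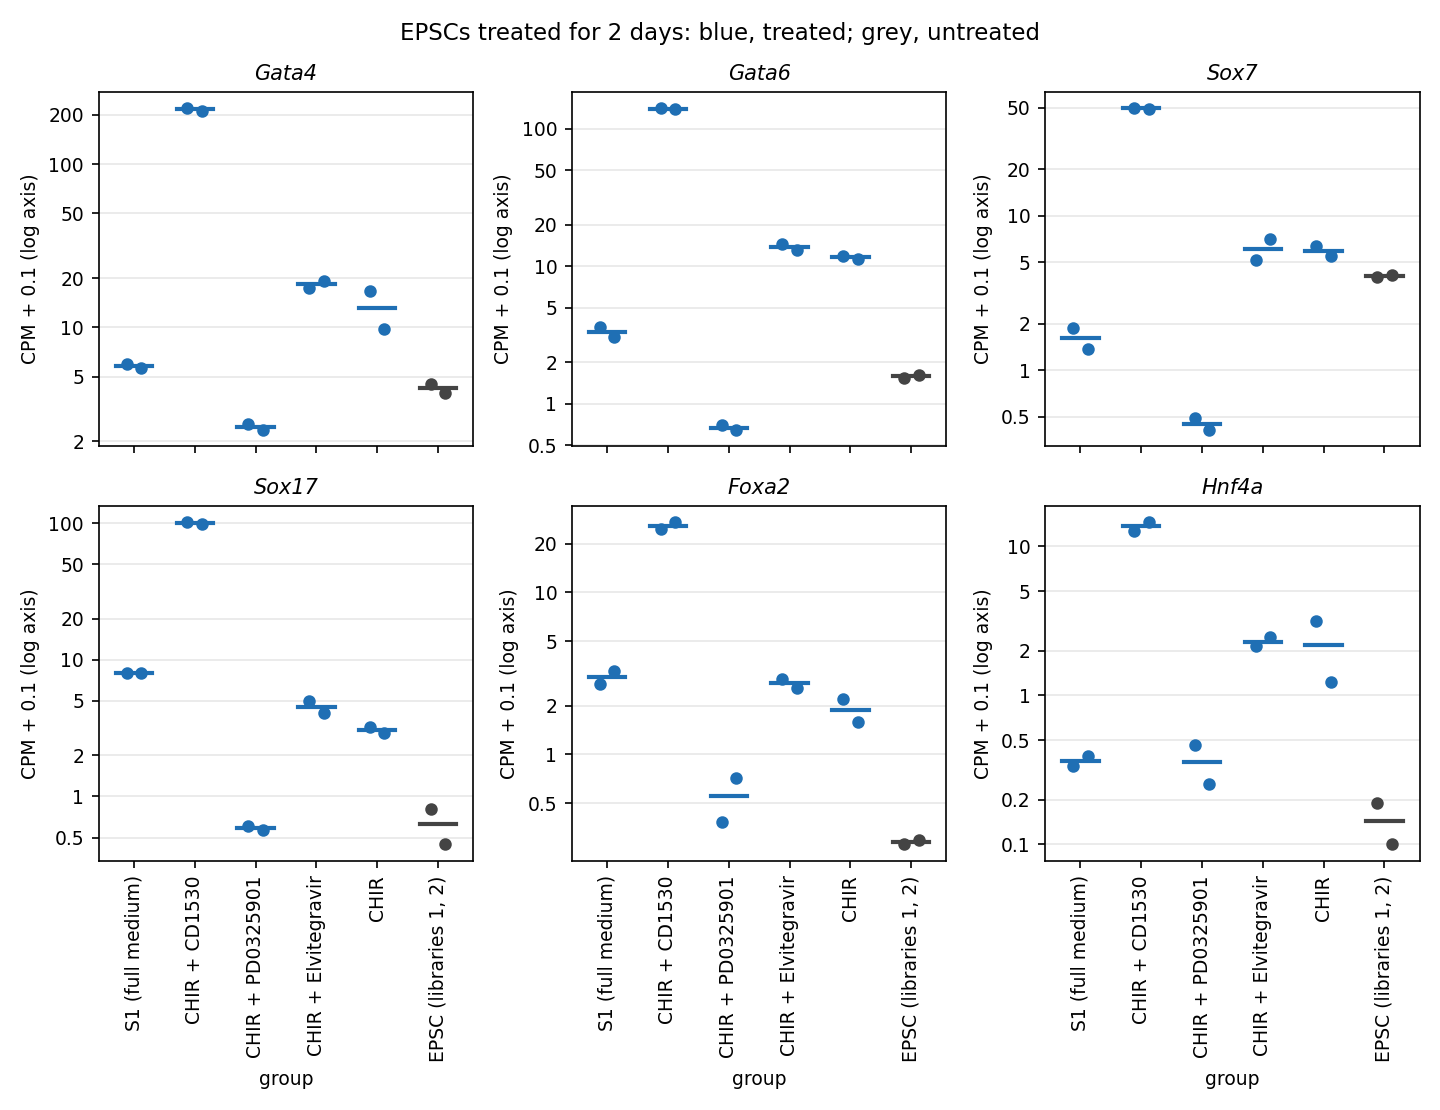
CPM + 0.1 of each factor on a log axis in every library of the 2-day EPSC treatments, with 1 point a library and a bar at the group mean. Gata4 reaches 212 and 220.1 CPM with CHIR-99021 and CD1530, and all 6 genes are lower with CHIR-99021 and PD0325901 than with CHIR-99021 alone.

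All 6 factors were lower in S1 cells, in the full totipotency medium, than in the arm with CHIR-99021 and CD1530. Gata4 had 5.88 and 5.50 CPM in S1 cells and 220.1 and 212 CPM with CHIR-99021 and CD1530. Hnf4a had 0.234 and 0.290 CPM in S1 cells and 12.7 and 14.4 CPM with the 2 compounds. Every S1 library lay below every CD1530 library for all 6 genes. The log2 fold changes ran from −5.70 ± 0.33 (Hnf4a) to −3.15 ± 0.21 (Foxa2), and 3.51% of all genes fell. Set against CHIR-99021 and PD0325901, 5 of the 6 were higher in S1 cells (10.8% of all genes), by 1.25 ± 0.18 for Gata4 up to 3.99 ± 0.23 for Sox17, and Hnf4a did not pass at −0.28 ± 0.47.

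Against EPSCs, 2 days of totipotency medium gave a mixed pattern: Gata6, Sox17, Foxa2 and Hnf4a rose, Sox7 fell and Gata4 did not pass. Sox17 had 7.84 and 7.96 CPM in S1 cells, against 0.711 and 0.345 CPM in EPSC libraries 1 and 2. Foxa2 had 2.63 and 3.16 CPM in S1 cells, against 0.178 and 0.197 CPM. Sox7 had 1.78 and 1.28 CPM in S1 cells, against 3.91 and 4.04 CPM in EPSCs. Thus the 2 SOX factors moved in opposite directions, with log2 fold changes of 3.88 ± 0.24 for Sox17 and −1.36 ± 0.21 for Sox7, and 3.93 ± 0.32 for Foxa2. Gata6 had 3.50 and 2.98 CPM in S1 cells and 1.44 and 1.53 CPM in EPSCs, a log2 fold change of 1.13 ± 0.17. Gata4, at 5.88 and 5.50 CPM in S1 cells and 4.42 and 3.87 CPM in EPSCs, stayed under the 2-fold limit at 0.46 ± 0.18. Over all genes 18.7% rose and 9.16% fell.

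The call for Hnf4a in S1 cells hung on the EPSC libraries. It had 0.234 and 0.290 CPM in S1 cells, against 0.0888 and 0 CPM in EPSC libraries 1 and 2 and 0.539 and 0.427 CPM in EPSC libraries 3 and 4. Its log2 fold change was 2.40 ± 0.82 against the first pair, 1.50 without EPSC library 2 and 0.41 against all 4 EPSC libraries, with adjusted p-values by edgeR's quasi-likelihood test of 0.014, 0.19 and 0.564. Other early primitive endoderm genes rose in 10 of 20 cases and fell in 2. Lrp2, the endocytic receptor megalin, averaged 122.2 ± 2.52 CPM in S1 cells and 9.22 ± 1.87 CPM in EPSCs. Of the retinoid list 10 of 14 rose and 3 fell, led by Stra8, a retinoic acid target, at 1099 ± 18.8 CPM in S1 cells and 0.0912 ± 0.0594 CPM in EPSCs. Of the FGF and ERK list 1 of 13 rose and 9 fell, and Spry4, a feedback inhibitor that FGF signalling switches on, averaged 1.64 ± 0.212 CPM in S1 cells and 170.4 ± 5.48 CPM in EPSCs.

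In mESCs the same medium went with a rise of 4 factors, Gata6, Sox7, Sox17 and Foxa2, and a fall of none (14.2% of all genes rose and 8.26% fell). Sox7 had 1.08 and 0.884 CPM in mESC-S1 cells and 0.131 and 0.0544 CPM in mESCs, the latter from 4 and 2 counts. Sox17 had 3.01 and 3.07 CPM in mESC-S1 cells and 0.328 and 0.326 CPM in mESCs. Gata6 had 5.27 and 5.80 CPM in mESC-S1 cells and 2.06 and 1.55 CPM in mESCs. All 3 were apart without overlap, with log2 fold changes of 3.43 ± 0.51, 3.20 ± 0.30 and 1.62 ± 0.18. Foxa2 had 90 counts in the mESC-S1 pair and 2 in the mESC pair, a ratio of 34.1 with a 95% counting interval of 9.16 to 285. That interval covers counting error only and takes each count as independent. Both pairs are among the libraries with mostly even low counts, so the interval is too narrow if read pairs gave even counts. Gata4 was at 3.79 and 4.05 CPM in mESC-S1 cells and 6.29 and 6.96 CPM in mESCs, with a log2 fold change of −0.76 ± 0.19 that did not reach 2-fold, and Hnf4a did not pass at 0.51 ± 0.29.

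The response to the medium differed between mESCs and EPSCs for 2 of the 6 factors, tested as an interaction. Of all genes, 8.70% were higher in the mESC response and 9.97% lower. The EPSC response used EPSC libraries 1 and 2, titled apart from the mESC libraries, and untreated mESCs were in 2i/L. Cell line, titled set and starting medium cannot be told apart here. The response of Sox7 was higher in mESCs by 4.79 ± 0.54 on the log2 scale, since Sox7 rose in mESCs and fell in EPSCs. That of Gata4 was lower in mESCs by 1.22, a difference of −1.22 ± 0.26. The difference for Hnf4a, −1.88 ± 0.90, did not pass but was called by DESeq2 (−2.03), without the low-count filter (−1.89), without EPSC library 1 (−5.96) and without the second mESC library (−2.28), which made the count 3 of 6. Untreated mESCs already differed from EPSC libraries 3 and 4, with 9.66% of all genes higher and 9.94% lower. Sox7 had 0.131 and 0.0544 CPM in mESCs (4 and 2 counts) and 4.10 and 5.08 CPM in EPSCs, a log2 fold change of −5.64 ± 0.43. Gata4 and Hnf4a were higher in mESCs by 1.32 ± 0.22 and 2.48 ± 0.47. Gata4 kept its direction but fell under the limit, at 0.93, when all 4 EPSC libraries were the base. Feeder fibroblast genes summed to 2340 to 2450 CPM in mESCs, 1230 CPM in mESC-S1 cells and 794 to 809 CPM in EPSC libraries 3 and 4, with 5 of 10 higher and 1 lower in mESCs than in EPSCs. Their part in these results was not tested, and the mESC and EPSC libraries also differ in the share of even counts.

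Long culture in totipotency medium was compared with EPSCs first, and with the 2-day response further below. At P25, 5 factors rose against EPSC libraries 3 and 4 and Sox7 fell, with 13.2% of all genes rising and 5.5% falling. Gata6 had 16.1 and 15.9 CPM at P25 and 1.29 and 1.34 CPM in those EPSCs, a log2 fold change of 3.60 ± 0.20. Sox17 had 10.3 and 12.1 CPM at P25 and 0.432 and 0.0534 CPM in EPSCs (8 counts and 1), a log2 fold change of 5.52 ± 0.33. Foxa2 had 200 counts in the P25 pair and 2 in the EPSC pair, a ratio of 109 with a 95% counting interval of 29.9 to 910. These 3 genes stood clearly apart from EPSCs. Sox7 had 1.74 and 1.65 CPM at P25 and 4.10 and 5.08 CPM in EPSCs, a log2 fold change of −1.43 ± 0.28. Gata4 at 1.47 ± 0.23 and Hnf4a at 2.23 ± 0.51 rose by less than Gata6, Sox17 and Foxa2. Feeder fibroblast genes, 2 of 10 of which rose and 1 fell, summed to 1390 to 1410 CPM at P25 and 794 to 809 CPM in these EPSCs, and their part was not tested.

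At P38, Gata6, Sox17, Foxa2 and Hnf4a rose (11.8% of all genes) and Sox7 fell (6.01%), while Gata4 missed the limit at 0.94 ± 0.24. Sox7 had 0.726 and 1.04 CPM at P38, against 4.10 and 5.08 CPM in EPSCs, a log2 fold change of −2.36 ± 0.31. Between P38 and P25 none of the 6 was called, where 0.339% of all genes, or 85, were, and 45 and 52 without the first and the second P25 library. All 6 log2 fold changes were nonetheless below 0, from −0.93 ± 0.36 (Sox7) to −0.16 ± 0.38 (Hnf4a), with adjusted p-values by edgeR's quasi-likelihood test of 0.0628 (Gata6) and above. The EPSC comparisons of P25 and P38 share their EPSC libraries.

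Tested as an interaction between the passaged and the 2-day cultures, each against its own EPSC pair, the P25 response was higher for 4 factors, with 4.76% of all genes higher and 4.54% lower. The differences were 2.47 ± 0.28 on the log2 scale for Gata6, 2.67 ± 0.88 for Foxa2, 1.64 ± 0.52 for Sox17 and 1.02 ± 0.29 for Gata4. Only that of Gata6 held in every alternative. With all 4 EPSC libraries as a common base the values were 0.92 for Foxa2, 0.51 for Sox17 and 0.37 for Gata4, all under the limit, and that of Hnf4a, −0.16 ± 0.83 with separate pairs, was 3.13 and called. Leaving out EPSC library 4 brought Foxa2 to 1.70 and Sox17 to 0.81, and leaving out EPSC library 1 brought Sox17 to 0.97 and Gata4 to 0.87, none of them called.

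In S2 aggregates Sox17, Foxa2 and Hnf4a fell against the mean of P25 and P38, where 11.6% of all genes fell and 5.89% rose. Sox17 had 3.52 and 4.57 CPM in S2, against 10.3 and 12.1 CPM at P25 and 7.22 and 9.04 CPM at P38. Foxa2 had 1.26 and 0.990 CPM in S2, against 5.63 and 5.31 CPM at P25 and 3.20 and 3.95 CPM at P38. S2 lay below all 4 passaged libraries for both, with log2 fold changes of −1.24 ± 0.17 and −1.98 ± 0.23. Hnf4a fell by 1.38 on the log2 scale (SE 0.35), but without the second S2 library the value was −1.10 and the call was lost. Gata4, Gata6 and Sox7 did not pass, at −0.73 ± 0.18, 0.53 ± 0.12 and 0.93 ± 0.25. Both S2 libraries lay above all 4 passaged libraries for Gata6 and Sox7, and Sox7 was called without the second P38 library (1.08) or the second S2 library (1.15). The labels do not say which S1 cells were aggregated, and S2 and the passaged libraries differ in the share of even counts. Of the early primitive endoderm list 11 of 20 fell and 1 rose. Among the family relatives Gata2 fell by 4.32 and Gata3 by 2.87 on the log2 scale, and 7 of 9 relatives tested fell.

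One more day in the same medium raised 5 of the 6, where 1.90% of all genes rose and 3.37% fell. Gata4 had 15.0 and 14.3 CPM in S3, against 4.12 and 3.27 CPM in S2. Sox17 had 24.3 and 22.6 CPM in S3, against 3.52 and 4.57 CPM in S2. Foxa2 had 5.98 and 5.85 CPM in S3, against 1.26 and 0.990 CPM in S2. The S3 libraries were above both S2 libraries each time, with log2 fold changes of 1.99 ± 0.18, 2.53 ± 0.19 and 2.39 ± 0.24. Gata6, at 41.7 and 45.9 CPM in S3 and 17.8 and 21.0 CPM in S2, rose by 1.18 ± 0.13, and Sox7 rose by 2.13 ± 0.22. Hnf4a, at 1.58 and 1.16 CPM in S3 and 1.00 and 0.660 CPM in S2, did not pass at 0.72 ± 0.38. The early primitive endoderm list had 11 of 20 genes that rose and none that fell, such as Pdgfra at 41.5 ± 0.292 CPM in S3 and 9.48 ± 0.405 CPM in S2. The visceral endoderm list had 2 of 19 that rose and 1 that fell.

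In S5 the GATA factors, Sox7, Foxa2 and Hnf4a rose over S3 and Sox17 did not pass (14.1% of all genes rose and 8.5% fell). Hnf4a had 71.4 and 103 CPM in S5, against 1.58 and 1.16 CPM in S3. Its log2 fold change of 6.00 ± 0.31 was the largest of the 6. Gata4 had 192 and 272 CPM in S5, against 15.0 and 14.3 CPM in S3, and Foxa2 had 34.7 and 46.9 CPM in S5, against 5.98 and 5.85 CPM. No S5 library overlapped S3 for these genes, although the 2 S5 libraries were well apart from each other, and the log2 fold changes were 3.98 ± 0.17 and 2.79 ± 0.20. Sox7 had 58.6 and 74.6 CPM in S5, against 11.7 and 8.84 CPM in S3, and Gata6 had 105 and 135 CPM in S5, against 41.7 and 45.9 CPM. They rose by 2.698 ± 0.19 and 1.46 ± 0.13. Sox17, at 23.1 and 29.1 CPM in S5 and 24.3 and 22.6 CPM in S3, overlapped between the stages, at a log2 fold change of 0.15 ± 0.16.

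Genes that Hnf4a and the visceral endoderm are known for rose at the same stage: 14 of 19 in the visceral endoderm list rose in S5 and none fell, with a median log2 fold change of 3.71. Ttr, the carrier transthyretin, averaged 60.2 ± 15.6 CPM in S5 and 0.0464 ± 0.0656 CPM in S3. Apob, the core protein of the lipid particles that yolk sac endoderm secretes, averaged 401.7 ± 135 CPM in S5 and 0.554 ± 0.259 CPM in S3. Of the anterior visceral endoderm list 8 of 10 rose and none fell, and of the early primitive endoderm list 15 of 20 rose and none fell. Lefty1, a Nodal antagonist, averaged 449.9 ± 136 CPM in S5 and 2.97 ± 0.321 CPM in S3. Dab2 averaged 718 ± 137 CPM in S5 and 25.5 ± 0.977 CPM in S3. The cardiac list had 5 of 10 genes that rose and 1 that fell, and summed to 45.1 to 77.1 CPM in S5, against 4.27 to 5.25 CPM in S3. The endothelial list had 6 of 10 that rose and 1 that fell, and summed to 50.1 to 74.8 CPM in S5 and 74.3 to 78.3 CPM in S3. Their part in the levels of the 6 factors was not tested.

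Per kb of exon, the factors can be set beside one another within a group. With CHIR-99021 and CD1530, Gata4 had 55.3 CPM per kb, Gata6 21.5, Sox17 20.8, Sox7 15.0, Foxa2 10.8 and Hnf4a 2.80. In S5, Gata4 had 59.4 CPM per kb, Sox7 20.2, Gata6 18.5, Hnf4a 18.1, Foxa2 17.2 and Sox17 5.46. Gata4 was thus first in both, while Hnf4a was last with CD1530 and Sox17 last in S5. These are levels, described without a test between genes.

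Leaving single agents out of the 4C-64C medium moved the factors in both directions, and the omissions of 8Br-cAMP and CHIR-99021 changed the most members. Without 8Br-cAMP, 5 of the 6 fell in S3 and none rose (3.80% of all genes fell and 2.83% rose). Sox7 had 0.712 and 1.64 CPM without 8Br-cAMP, against 11.7 and 8.84 CPM in full S3. Gata6 had 9.44 and 7.54 CPM without it, against 41.7 and 45.9 CPM. Foxa2 had 0.977 and 1.11 CPM without it, against 5.98 and 5.85 CPM. All libraries without 8Br-cAMP lay below both of full S3, with log2 fold changes of −3.19 ± 0.24, −2.36 ± 0.14 and −2.51 ± 0.24. Gata4 had 4.07 and 3.71 CPM, against 15.0 and 14.3 CPM, and Sox17 had 6.35 and 6.37 CPM, against 24.3 and 22.6 CPM. They fell by 1.91 (SE 0.18) and 1.88 (SE 0.18). Hnf4a had 1.65 and 1.64 CPM, against 1.58 and 1.16 CPM, and did not pass.

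In S2, after 1 day, the same omission lowered Gata6 and Sox7 (1.28% of all genes fell). Sox7 had 0.341 and 0.482 CPM without 8Br-cAMP and 2.72 and 1.98 CPM in full S2, and Gata6 had 6.89 and 6.52 CPM and 17.8 and 21.0 CPM. Both groups were clear of each other, with log2 fold changes of −2.45 ± 0.32 and −1.53 ± 0.14, and the other 4 factors did not pass. Other early primitive endoderm genes fell in 9 of 20 cases in S3 without 8Br-cAMP and in 2 of 20 in S2, and rose in none. Pdgfra averaged 9.91 ± 0.661 CPM in S3 without 8Br-cAMP and 41.5 ± 0.292 CPM in full S3. Epiblast and pluripotency genes fell in 6 of 10 cases in S3, as Pou5f1, which encodes OCT4, at 97.2 ± 2.74 CPM without 8Br-cAMP and 246.4 ± 8.08 CPM in full S3.

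Without CHIR-99021, 4 factors rose in each stage. In S3, Gata4 had 68.2 and 67.2 CPM without CHIR-99021, against 15.0 and 14.3 CPM in full S3, and Sox7 had 62.2 and 63.9 CPM, against 11.7 and 8.84 CPM. Foxa2 had 14.8 and 14.8 CPM, against 5.98 and 5.85 CPM. The libraries without CHIR-99021 were the higher ones each time, with log2 fold changes of 2.21 ± 0.16, 2.62 ± 0.19 and 1.32 ± 0.20, where 5.04% of all genes rose. Hnf4a rose by 1.04 ± 0.32, a call lost without the second S3 library (0.85) or the first library without CHIR-99021 (1.03). Gata6, at 87.7 and 82.9 CPM without CHIR-99021 and 41.7 and 45.9 CPM in full S3, stayed just under 2-fold at 0.96 ± 0.13, but passed without the second S3 library (1.05) or the second library without CHIR-99021 (1.01). Sox17 did not pass at −0.31 ± 0.17.

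In S2 without CHIR-99021, Sox7 had 27.8 and 25.3 CPM, against 2.72 and 1.98 CPM in full S2, and Gata6 had 42.1 and 45.6 CPM, against 17.8 and 21.0 CPM. Gata4 had 8.49 and 9.99 CPM, against 4.12 and 3.27 CPM, and Foxa2 had 3.58 and 3.97 CPM, against 1.26 and 0.990 CPM. These 4 rose without overlap, by 3.50 ± 0.22 for Sox7, 1.18 ± 0.13 for Gata6, 1.32 ± 0.19 for Gata4 and 1.75 ± 0.25 for Foxa2, where 2.86% of all genes rose. Hnf4a fell by 2.08 on the log2 scale (2.22% of all genes fell), with 0.267 and 0.115 CPM against 1.00 and 0.660 CPM in full S2, and lost the call without the first S2 library (−1.76) or the second library without CHIR-99021 (−1.62).

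Of the early primitive endoderm list, 14 of 20 rose in S3 without CHIR-99021 and 9 of 20 in S2, and none fell in either. Cubn averaged 221.7 ± 10.4 CPM in S3 without CHIR-99021 and 12.4 ± 2.05 CPM in full S3, and Lrp2 averaged 358.9 ± 5.99 and 43.7 ± 4.63 CPM in that order. In S3, 6 of 10 parietal endoderm genes rose and 1 fell, among them Pth1r at 59.4 ± 0.569 CPM without CHIR-99021 and 6.83 ± 1.2 CPM with it. Of 10 endothelial genes 6 rose in S3 and none fell, and they summed to 141 CPM without CHIR-99021 and 74.3 to 78.3 CPM in full S3. Most of that sum was Pecam1 at 107.4 ± 1.62 CPM without CHIR-99021 and 52.6 ± 1.91 CPM in full S3, a gene that pluripotent cells also express, and Kdr, a receptor of endothelial cells, averaged 4.23 ± 1.26 CPM and 0.574 ± 0.369 CPM. The part of endothelial cells in the rise of Sox7 was not tested.

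Birabresib and CD1530 each touched 1 member a stage. Without Birabresib, Sox17 rose in S2, with 7.83 and 8.55 CPM against 3.52 and 4.57 CPM in full S2 and a log2 fold change of 1.02 ± 0.19 (2.85% of all genes rose). That call was lost without the first S2 library (0.83) or the second library without Birabresib (0.95), and the 746 genes called in all came to 366 and 437 without the first and the second S2 library. In S3 without Birabresib, Sox17 had 40.2 and 35.0 CPM against 24.3 and 22.6 CPM in full S3 but did not reach 2-fold at 0.68 ± 0.16, and Hnf4a rose by 1.14 ± 0.31 (5.75% of all genes rose). Without CD1530, Gata6 fell in S2, with 6.39 and 7.96 CPM against 17.8 and 21.0 CPM in full S2 and a log2 fold change of −1.43 ± 0.14 (1.61% of all genes fell). In S3 without CD1530 it did not pass at 0.26 ± 0.13, and Hnf4a rose by 1.29 ± 0.31 (1.97% of all genes rose). Both Hnf4a calls in S3 were lost without the second S3 library, at 0.94 and 1.09. Retinoid genes fell in 8 of 14 cases in S2 without CD1530 and rose in none, as Stra8 at 78.5 ± 6.74 CPM without CD1530 and 466.7 ± 15.2 CPM in full S2, and none of the 20 early primitive endoderm genes was called there.

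**Figure D3:**
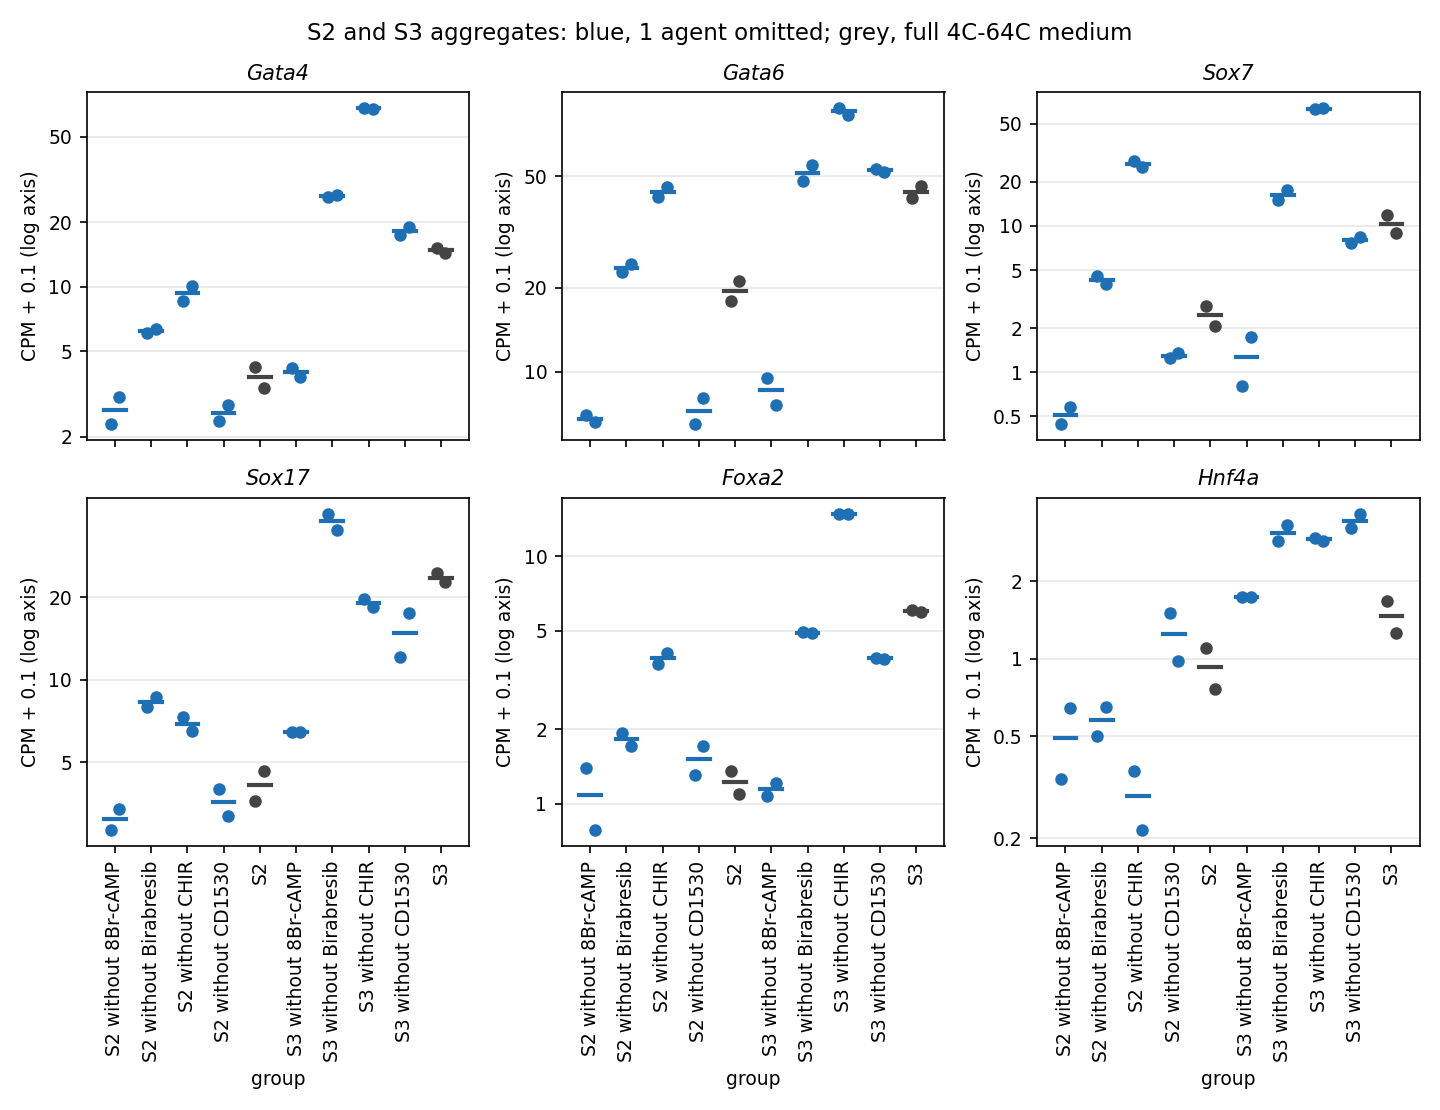
CPM + 0.1 of each factor on a log axis in every S2 and S3 library, with the 4 omissions left of the full medium of each stage, 1 point a library and a bar at the group mean. Sox7 is at 62.2 and 63.9 CPM in S3 without CHIR-99021 and at 0.712 and 1.64 CPM in S3 without 8Br-cAMP, with full S3 at 11.7 and 8.84 CPM.

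The S3 omissions were also set against one another, each against the mean of the other 3, in comparisons that leave out full S3. Without 8Br-cAMP the same 5 factors were lower, by −4.16 ± 0.22 (Sox7) to −1.78 ± 0.16 (Sox17), against 4.45% of all genes, and Hnf4a did not reach 2-fold at −0.89 ± 0.26. Without CHIR-99021, Sox7 was higher by 3.59 ± 0.14, Foxa2 by 2.47 ± 0.15, Gata4 by 2.46 ± 0.12 and Gata6 by 1.58 ± 0.10 (5.00% of all genes were higher). Without Birabresib only Sox17 was higher, by 1.63 ± 0.13 (10.7% of all genes were), and without CD1530 none of the 6 was called (7.29% of all genes were). A test of Sox17 against Sox7 within an omission was not run.

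In the peri-implantation medium, FGF4 was the one agent whose omission lowered all 6 factors by the test. Without it 2.53% of all genes fell and 2.12% rose. All 6 group means were also below full S5 without XAV939, with 3 called, and without BMP4, with 0 called. Gata6 had 24.7 and 28.8 CPM without FGF4, against 105 and 135 CPM in full S5. Sox17 had 5.79 and 6.22 CPM without FGF4, against 23.1 and 29.1 CPM. Gata4 had 52.8 and 59.2 CPM without FGF4, against 192 and 272 CPM. The libraries without FGF4 were lower throughout, with log2 fold changes of −2.17 ± 0.13, −2.12 ± 0.18 and −2.05 ± 0.16. Sox7 had 16.7 and 21.2 CPM, against 58.6 and 74.6 CPM, and Foxa2 had 14.4 and 16.0 CPM, against 34.7 and 46.9 CPM, with log2 fold changes of −1.81 ± 0.18 and −1.42 ± 0.19. Hnf4a, at 34.4 and 38.0 CPM without FGF4 and 71.4 and 103 CPM in full S5, fell by 1.27 on the log2 scale (SE 0.24), and by 0.98 without the second S5 library, where the call was lost.

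The early primitive endoderm list had 17 of 20 genes that fell without FGF4 and none that rose, with a median log2 fold change of −1.91 against 0.02 over all genes. Lama1 averaged 100.6 ± 15.1 CPM without FGF4 and 740.9 ± 48.8 CPM in full S5, and Pdgfra 16.3 ± 2.54 CPM and 81.4 ± 2.16 CPM. Of the visceral endoderm list 7 of 19 fell, of the anterior visceral endoderm list 4 of 10, and of the trophectoderm list 8 of 10, and none rose in any of them. Krt18 averaged 67.3 ± 1.58 CPM without FGF4 and 191.6 ± 10.8 CPM in full S5. Of the cardiac list 1 of 10 fell and none rose, and their sum was 21.7 to 26.6 CPM without FGF4, against 45.1 to 77.1 CPM. The part of these cell types was not tested.

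Omission of Activin A raised Sox17 alone among the 6 (0.407% of all genes rose and 0.714% fell). Sox17 had 60.6 and 54.5 CPM without Activin A, against 23.1 and 29.1 CPM in full S5, a log2 fold change of 1.14 ± 0.16, which came to 0.99 and lost the call without the first S5 library. Sox7 had 93.0 and 92.4 CPM without Activin A, against 58.6 and 74.6 CPM, and Foxa2 had 25.1 and 22.5 CPM, against 34.7 and 46.9 CPM. Neither passed, at 0.48 ± 0.17 and −0.78 ± 0.19, although the libraries did not overlap. Gata4 (−0.06 ± 0.15) and Gata6 (−0.07 ± 0.13) were near 0, with libraries that overlapped or lay within the range of full S5. The anterior visceral endoderm list fell in all 10 genes, as Lhx1, a homeobox factor of that region, at 22.1 ± 2.06 CPM without Activin A and 123.2 ± 32.9 CPM in full S5. Of the parietal endoderm list 4 of 10 rose and 1 fell, as Pth1r at 176.8 ± 14.4 CPM and 55.9 ± 9.35 CPM in that order. The sum of the early primitive endoderm list was 17500 to 18100 CPM without Activin A and 11600 to 14700 CPM in full S5, with 2 of 20 genes that rose and 1 that fell.

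Without XAV939, Gata4, Foxa2 and Hnf4a fell (1.01% of all genes fell and 1.13% rose). Hnf4a had 24.5 and 33.5 CPM without XAV939, against 71.4 and 103 CPM in full S5. Foxa2 had 16.8 and 17.7 CPM, against 34.7 and 46.9 CPM. Gata4 had 81.5 and 111 CPM, against 192 and 272 CPM. No libraries overlapped, with log2 fold changes of −1.59 ± 0.24, −1.24 ± 0.19 and −1.27 ± 0.15. The fall of Gata4 came just under the limit, at −0.999, without the second S5 library. Gata6 at −0.88 ± 0.13, Sox7 at −0.53 ± 0.17 and Sox17 at −0.19 ± 0.16 did not reach 2-fold. Gata6 passed without the first S5 library (−1.05) or the second library without XAV939 (−1.02). The count over all genes, 536, was 182 without the second S5 library, and 310 and 991 without the first and the second library without XAV939. Of the visceral endoderm list 9 of 19 fell and none rose, as Afp, α-fetoprotein, at 17.6 ± 4.05 CPM without XAV939 and 72.6 ± 32.8 CPM in full S5, and of the early primitive endoderm list 8 of 20 fell and none rose. The 2 libraries without XAV939 were further apart than most pairs, with an SD of 0.385 on the log2 scale over genes.

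Omission of BMP4 changed none of the 6 by the test, where 0.0559% of all genes, or 14, were called. That count was 108 without the first S5 library, 0 without the second, and 1 without either library lacking BMP4. All 6 log2 fold changes were below 0, from −0.72 ± 0.15 (Gata4) to −0.24 ± 0.16 (Sox17). Gata4 had 147 and 136 CPM without BMP4, against 192 and 272 CPM in full S5, and Gata6 had 81.3 and 83.3 CPM, against 105 and 135 CPM. The groups did not overlap for any of the 6, narrowly so for Sox17, with at most 22.61 CPM without BMP4 and at least 23.05 CPM in full S5. Adjusted p-values by edgeR's quasi-likelihood test were 0.0196 for Gata4 and 0.0378 for Gata6, at a change under 2-fold. None of the 20 early primitive endoderm genes and none of the 19 visceral endoderm genes was called. All 4 omissions share the 2 libraries of full S5.

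**Figure D4:**
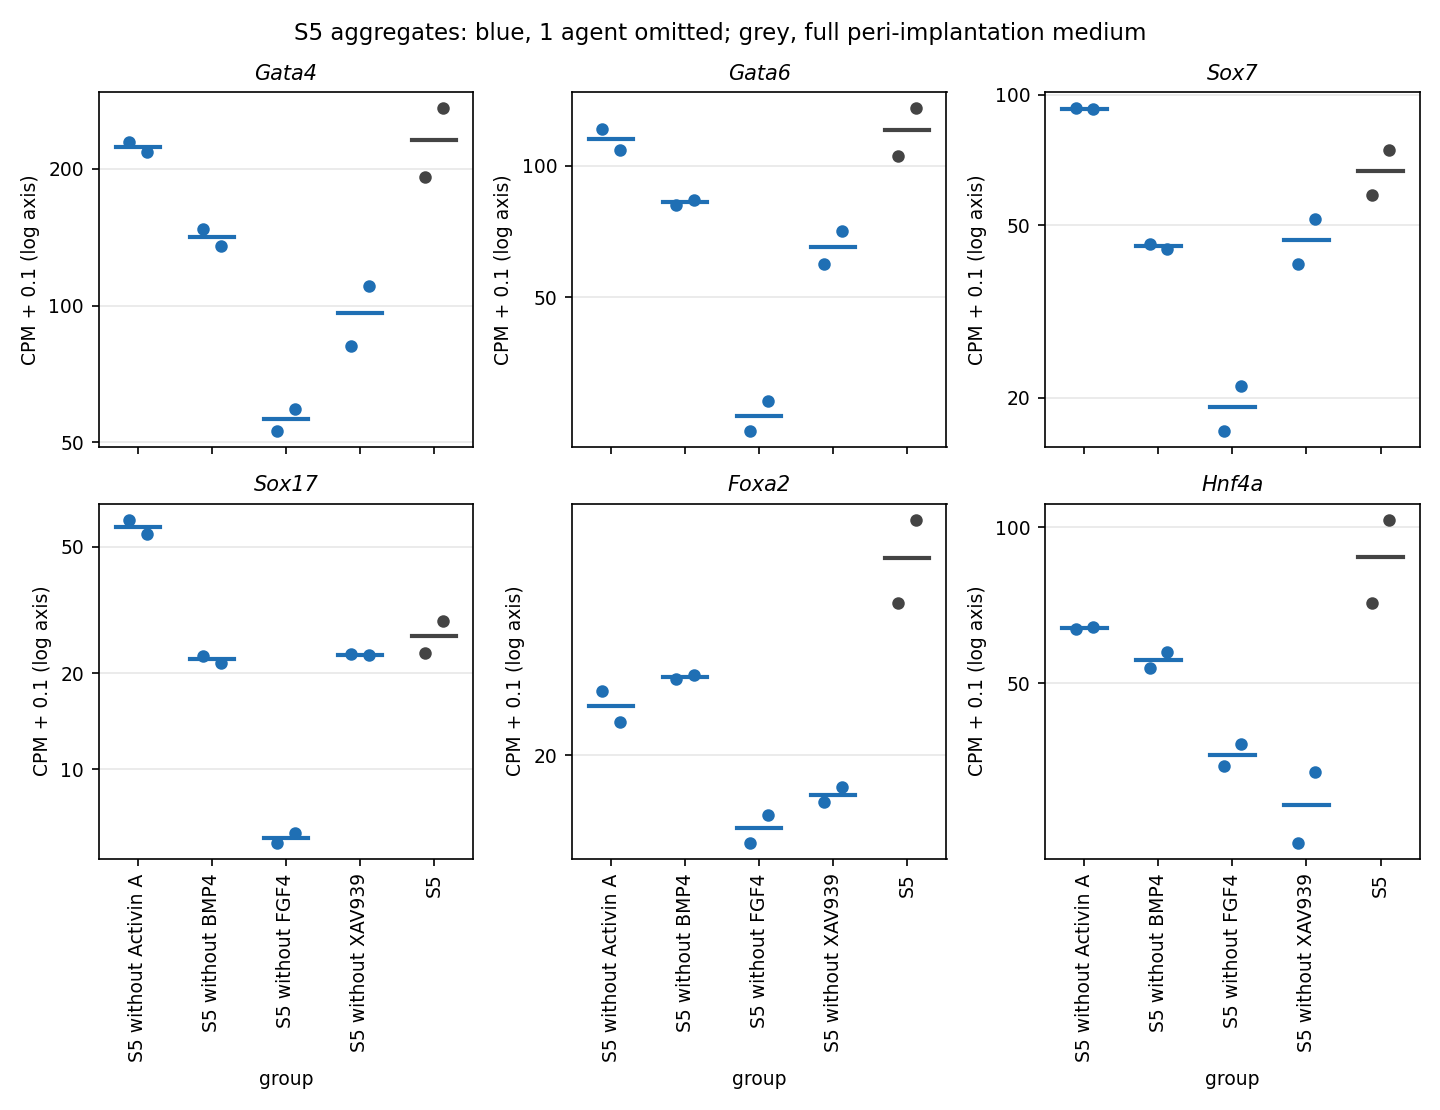
CPM + 0.1 of each factor on a log axis in every S5 library, with the 4 omissions left of full S5, 1 point a library and a bar at the group mean. All 6 genes are lower without FGF4, and Sox17 is higher without Activin A, at 60.6 and 54.5 CPM, than in full S5, at 23.1 and 29.1 CPM.

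Over all comparisons the factors were called in 29 of 48 gene tests for the totipotency medium (24 higher and 5 lower), in 48 of 60 for the single compounds (34 and 14), in 13 of 18 for the stages (10 and 3) and in 40 of 96 for the omissions (17 and 23). Per comparison, 0.339% to 27.8% of all genes were called in either direction for the totipotency medium. That share was 0.00798% to 23.6% for the single compounds, 5.28% to 22.6% for the stages and 0.0559% to 11.5% for the omissions. The totals for the factors count tests that share libraries and are given as a description.

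**Figure D5:**
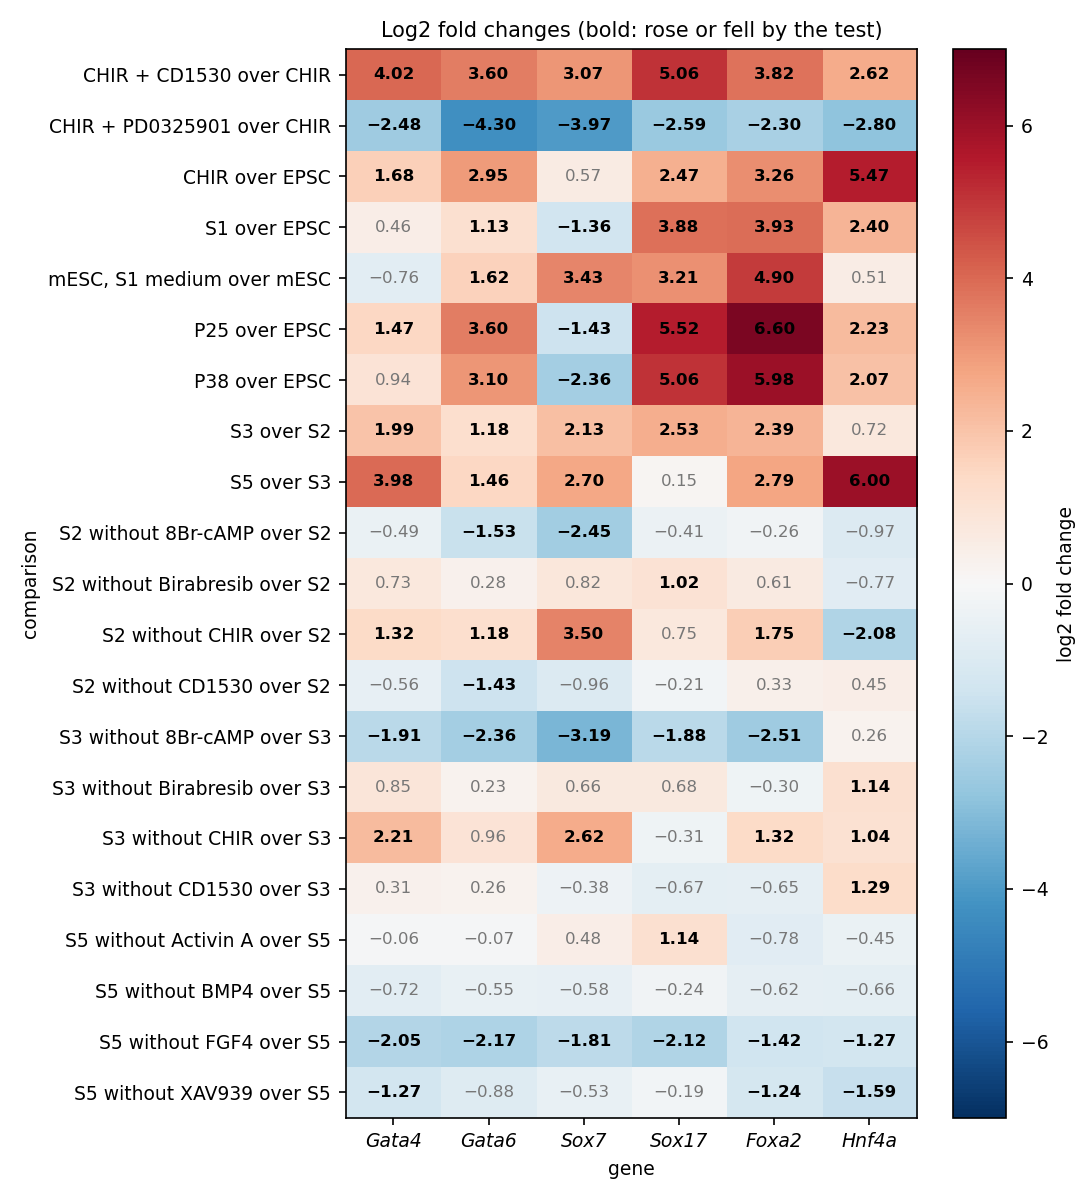
Log2 fold change of each factor, genes across and comparisons down, with the value printed in each cell and in bold where the gene rose or fell by the test. The row for CD1530 added to CHIR-99021 runs from 2.62 (Hnf4a) to 5.06 (Sox17), and that for S5 without FGF4 from −2.17 (Gata6) to −1.27 (Hnf4a).

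Among themselves, the 6 followed one another over the 26 group means to differing degrees. On log2 CPM, Sox17 and Foxa2 had a Pearson r of 0.914 (Spearman rho 0.890), and Gata6 and Sox17 0.913 (0.884). The lowest values involved Hnf4a, with 0.597 (0.569) against Sox7 and 0.613 (0.594) against Sox17. Gata4 and Sox7, which lie 0.67 Mb apart on chromosome 14, had 0.862 (0.871). The means share culture series and controls, so the values are descriptions.

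The genes most like each member over the same 26 means, among 12717 genes with a mean of at least 5 CPM in some group, were sought by Pearson r. For Gata4 they included Srgn (0.965), Klb (0.953), Hkdc1 (0.944) and Dab2 (0.941). Klb is a co-receptor for endocrine FGFs. For Gata6 they were Pdgfra (0.916), Sox17 (0.913), Foxq1 (0.903), Slc26a2 (0.890) and Foxa2 (0.889). Slc26a2 is a sulfate transporter.

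For Sox7 the 5 were Tent5a (0.884), Clip2 (0.879), Pdgfra (0.871), Gata4 (0.862) and the laminin chain Lamb1 (0.853). For Sox17 they were Ihh (0.916), Foxa2 (0.914), Gata6 (0.913), Egflam (0.893) and Slc26a2 (0.881). Sox17 and Gata6 thus each appear among the 5 nearest to the other. For Foxa2 they were Nostrin (0.942), the Wnt antagonist Dkk1 (0.929), Amot (0.918), Ubash3b (0.917) and Sox17 (0.914). For Hnf4a they were the monocarboxylate transporter Slc16a1 (0.911), Amn (0.908), which anchors cubilin at the cell surface, Srgn (0.903), Abcc2 (0.881) and Klb (0.880). No other member of the set stood among the 5 nearest to Hnf4a.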

How the data were processed

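Bulk RNA-seq was measured in 52 libraries of 25 groups. The deposited values are raw read counts per gene. Per the submitters' processing notes, Trimmomatic 0.39, STAR 2.7.10b and featureCounts 2.0.6 were used with mm10; no source used here gives the authors' annotation or strand setting. Totals were 16643188 to 108304781 counts per library.

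Groups came from the treatment labels. Counts were fitted with edgeR 4.0.16 (TMM sizes, low-count filter of edgeR, 26 group means in 1 fit, quasi-likelihood F test, Benjamini-Hochberg over 25056 genes). The standard error is the log2 fold change divided by the square root of F. EPSC libraries 1 and 2 served the 2-day EPSC treatments and libraries 3 and 4 the rest. Intervals for ratios of few counts are exact 95% intervals.

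The 6 factors, the gene lists and the tests were chosen with earlier results of these data known. The named genes were all 6 members, the 5 genes nearest each member by Pearson r, and up to 4 genes of a list with the smallest adjusted p. One gene that the rule selects is not reported here. The fit was tested on simulated counts. Alternatives were all genes unfiltered, RLE sizes, DESeq2 1.42.0, pooled EPSC libraries, separate sets, replicate blocks and omission of each library.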

Additional observations from a re-analysis of the deposited data

Results flagged for a closer look

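Sox7 in the 4 EPSC libraries was marked for a closer look because library 4, at 5.08 CPM, lay far from the other 3, at 3.91, 4.04 and 4.10 CPM, by Dixon's criterion, which chance alone meets in about 1 in 20 groups.

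The response to 2 days of totipotency medium differed between mESCs and EPSCs, by the interaction test, for Gata4 (−1.22 on the log2 scale, lower in mESCs) and Sox7 (4.79, higher in mESCs).

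The P25 response exceeded the 2-day response, by the same kind of test, for Gata4 (1.02), Gata6 (2.47), Sox17 (1.64) and Foxa2 (2.67), each stage against its own EPSC pair. Only Gata6 held in every alternative run: with pooled EPSC libraries Gata4 (0.37), Sox17 (0.51) and Foxa2 (0.92) were under the limit, and without EPSC library 4 Sox17 (0.81) and Foxa2 (1.70) were not called.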

How the results depend on the processing

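The number of calls among the 6 factors stayed within 1.5 times the main count under every alternative run: 26 to 29 for the totipotency medium (23 with each set fitted alone, which allows 36 of its 48 tests), 48 for the single compounds, 13 for the stages and 40 for the omissions. Without filtering, with RLE sizes and with DESeq2, 220, 221 and 219 of 222 gene tests kept direction and side of the threshold, as did 51 of 60 with pooled EPSC libraries, where 6 lost and 2 gained a call. With each library left out, calls ranged over 27 to 30, 47 to 48, 13 to 14 and 38 to 41, and 1003 gene tests kept both, while 26 lost and 15 gained a call; these fits held the genes tested and the mean-dispersion trend of the full fit and assumed that a lone library varies like the others. The 1 reversal, also with pooled EPSC libraries, was Hnf4a in the P25 against the 2-day response, at 3.13; its 2 EPSC pairs had 0.0888 and 0 CPM and 0.539 and 0.427 CPM. CPM on total counts moved levels by a factor of 0.923 to 1.15. The replicate numbers were not taken to pair the libraries, since 41 of 325 pairs of groups had same-numbered deviations correlated above 0.1 (range −0.434 to 0.848, median −0.004), and the replicate block gave 29, 48, 13 and 40 calls, changing none. Depth limits Foxa2 in EPSCs (0 to 8 counts a library) and mESCs (0 and 2), and Hnf4a in EPSCs (0 to 10). It also limits Sox7 in mESCs (4 and 2) and Sox17 in EPSC libraries 3 and 4 (8 and 1).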
